A study of Mus musculus with 12 samples.

Results

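The nuclear factor I (NFI) family consists of 4 genes in the mouse, Nfia, Nfib, Nfic and Nfix, and all 4 were found by their Ensembl identifiers among the 30399 genes of the series. All 4 passed the filter on low values and are among the 23674 genes tested. RNA sequencing of poly-A RNA compared 7 tumors with 5 normal lungs, in a study of mouse lung cancer models made by nonviral CRISPR/Cas9 mutagenesis, in which a guided nuclease cuts chosen genes so that faulty repair can disable them. The labels give the tissue only (tumor or normal lung). They do not give the strain, sex, age, genotype, the genes targeted in each tumor, or what the normal lung donors received. Titles carry a number that tumors 3 and 4 share (159) and that tumors 5, 6 and 7 share (201), so the tumors may come from fewer than 7 animals. Nothing in the labels says that all samples came from separate animals, so p-values measure the spread between these samples.

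NFI proteins are transcription factors that bind DNA as dimers at a palindrome of TTGGC, any 5 bases and GCCAA, through a DNA-binding domain that the members share, and each can activate or repress its targets. Nfib is needed for the maturation of the fetal lung, and mice without it are born with immature airspaces. Nfia, Nfib and Nfix also steer the development of glia and neurons, and Nfic is best known for its part in tooth root formation. In mouse small cell lung carcinoma, a neuroendocrine tumor that follows loss of Rb1 and Trp53, the chromosome region that holds Nfib is recurrently amplified, and Nfib has been studied there as a driver of metastasis.

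Promoter sequences are shown because they are where the recognition element of these factors can be read against the genes whose RNA is described below. RefSeq windows on GRCm38.p6, from 250 bases before to 50 bases after an annotated start, were held for 3 of the 4 members, Nfia, Nfic and Nfix. The submitters' processing notes name GRCm39 for the series, so the coordinates below belong to the sequence table and not to the counts. Capitals mark each TTGGC, or GCCAA where the element lies on the other strand. The Nfix window is the start with the most elements among its 4 starts. Ezh2 and Sftpb are genes of the lists described further on.
Nfia, chr4:97581693-97581992, plus strand: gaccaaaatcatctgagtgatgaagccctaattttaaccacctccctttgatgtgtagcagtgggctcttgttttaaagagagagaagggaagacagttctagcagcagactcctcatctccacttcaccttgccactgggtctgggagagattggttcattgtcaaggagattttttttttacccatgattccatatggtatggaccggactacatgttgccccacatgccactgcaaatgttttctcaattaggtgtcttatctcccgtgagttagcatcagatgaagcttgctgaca
Nfic, chr10:81427124-81427423, minus strand: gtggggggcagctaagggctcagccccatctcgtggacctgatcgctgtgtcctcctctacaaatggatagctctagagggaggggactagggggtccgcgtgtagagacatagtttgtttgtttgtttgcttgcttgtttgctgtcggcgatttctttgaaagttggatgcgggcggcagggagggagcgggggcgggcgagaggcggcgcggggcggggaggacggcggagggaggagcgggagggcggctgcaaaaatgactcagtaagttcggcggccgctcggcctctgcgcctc
Nfix, chr8:84772826-84773125, minus strand: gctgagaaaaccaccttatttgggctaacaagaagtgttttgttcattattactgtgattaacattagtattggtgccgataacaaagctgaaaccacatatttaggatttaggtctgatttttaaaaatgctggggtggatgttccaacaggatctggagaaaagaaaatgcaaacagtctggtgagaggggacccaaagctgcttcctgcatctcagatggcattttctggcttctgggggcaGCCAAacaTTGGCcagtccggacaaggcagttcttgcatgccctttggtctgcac
Ezh2, chr6:47594981-47595280, minus strand: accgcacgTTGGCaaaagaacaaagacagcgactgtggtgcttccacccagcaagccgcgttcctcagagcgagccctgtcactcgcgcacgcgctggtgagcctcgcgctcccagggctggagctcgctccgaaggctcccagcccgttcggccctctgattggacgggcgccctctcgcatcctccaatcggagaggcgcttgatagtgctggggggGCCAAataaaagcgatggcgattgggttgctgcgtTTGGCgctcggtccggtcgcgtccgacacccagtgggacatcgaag
Sftpb, chr6:72304360-72304659, plus strand: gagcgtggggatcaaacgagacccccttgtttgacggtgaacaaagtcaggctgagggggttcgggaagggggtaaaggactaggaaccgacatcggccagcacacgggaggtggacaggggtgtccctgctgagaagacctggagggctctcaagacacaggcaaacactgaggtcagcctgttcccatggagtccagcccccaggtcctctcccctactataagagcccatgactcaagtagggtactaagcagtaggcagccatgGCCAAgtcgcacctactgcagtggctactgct

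The windows of Nfia and Nfic held 0 such elements, and the 4 windows of Nfix held 0, 1, 1 and 2. The Ezh2 window held 3 and that of Sftpb, a surfactant protein gene, held 1. Elements were counted on both sides of the start, and that of Sftpb lies after it, directly behind an ATG. Of 32851 windows in the table, 46.7% held at least 1 TTGGC on either strand, 14.4% held at least 2 and 3.75% at least 3, while the whole palindrome (TTGGC, any 5 bases, GCCAA, which contains both shorter elements) occurred in 12 windows (0.0365%), none of them a member of the lists below. Among genes of lung epithelial maturation 4 of 9 windows held an element, and among genes studied as neural NFI targets 6 of 8 did. The latter include the window of Gabra6, a gene with no RNA values in the series. The Nfic window was rich in CpG, with 24 CpG and 63.0% G and C, against 2 CpG and 44.7% in the Nfia window and a median over all windows of 7 CpG and 52.7%. These matches describe letters in a window and do not show binding.

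The normal lung libraries held 11126432 to 17032234 gene reads, and the tumor libraries 13093843 to 24217633. The 4 members rested on 1025 to 46362 reads in each library, so counting error was small beside the spread between samples. Values are normalized read counts, that is, reads divided by a size factor for each sample. The labelled tissues were checked against marker genes. All 11 neuroendocrine markers measured here (such as Chga and Syp) were higher in tumor, with summed values of 284 to 389 in normal lung and 35543 to 125524 in tumors, and all 10 lung epithelium markers were lower. All 8 proliferation markers were higher, all 10 endothelial markers were lower, and 0 of 7 cardiac muscle markers were called. Of all genes tested, 31.4% were called higher in tumor and 30.1% lower. Tumor 7 stood apart, with a summed value of 40942 over 7 cardiac muscle markers against 595 to 2957 in the other tumors and 492 to 4624 in normal lung, and with the highest leukocyte and mesenchyme sums of the tumors. Fold changes of the 4 members, and their differences among the tumors, are therefore given with and without it. For the genes of the lists this was done in some cases only.

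Of the 4 NFI genes, Nfib, Nfic and Nfix rose and Nfia fell in tumor. A call means an adjusted p under 0.05 in limma, with Benjamini-Hochberg adjustment over all 23674 genes, and by that rule 31.4% of all genes passed as higher and 30.1% as lower, 61.5% in all. In edgeR on 11 samples, where 34.9% of genes were higher and 26.3% lower, and in DESeq2, with 32.3% and 26.1%, the same 3 members were higher and Nfia lower. A call on its own therefore sets a gene apart from few others in this comparison, and the sizes of the changes and the values in each sample carry the description. The values of the 7 tumors lay above all normal lungs for Nfib and Nfix, as for 20.1% of all genes, and below them for Nfia, as for 18.4% of all genes. In bulk tissue, a change in the share of cells that express a gene and a change in its RNA per cell cannot be told apart. Summed endothelial markers were far lower in the tumors (2699 to 7529.8) than in the normal lungs (72738 to 88024), and all 10 lung epithelium markers fell. The highest tumor sum, that of tumor 1, was mostly Vwf (6521.9, against 3220.5 to 9569.3 across normal lungs). By the mean log2 value of these endothelial markers, tumor 1 (6.78) was the lowest tumor but for tumor 3 (6.51). Whether cell composition changed was not tested, nor was its part in the changes of the NFI genes.

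**Figure D1:**
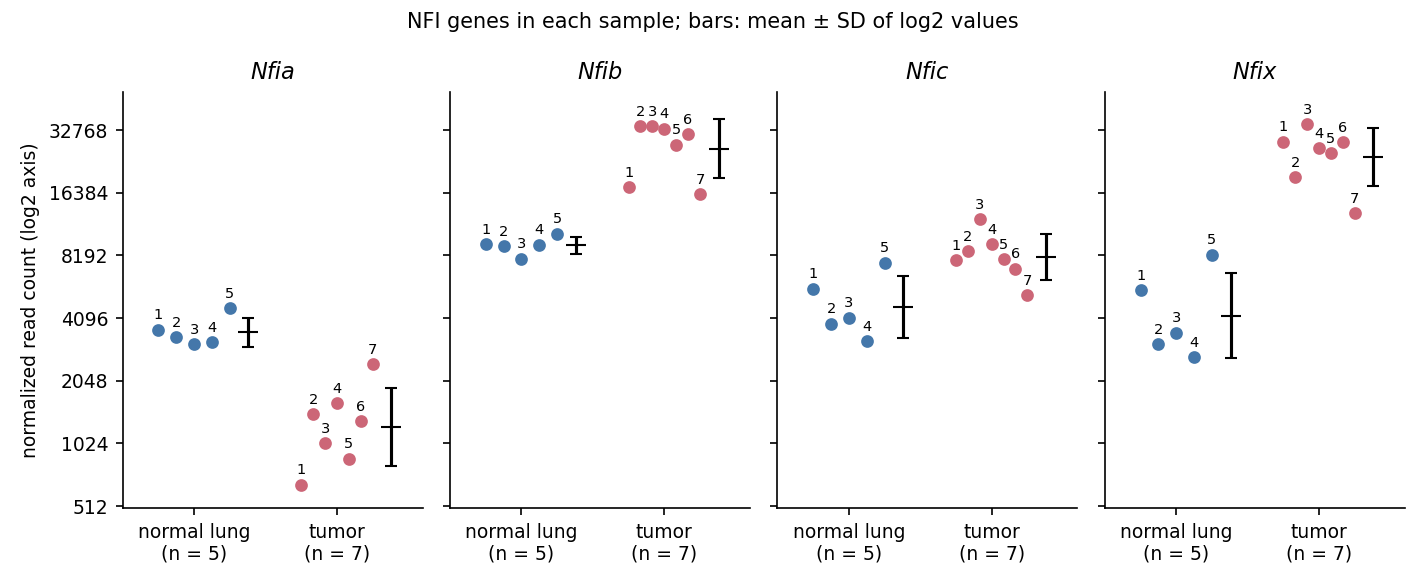
Normalized read counts (log2 axis) of the 4 NFI genes in each of 5 normal lungs (blue) and 7 tumors (red), numbered by replicate, with bars for the mean ± SD of the log2 values. For Nfib and Nfix the tumors all lie above the normal lungs, for Nfia all below, and Nfic overlaps between the groups.

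Nfib (ENSMUSG00000008575), the member with the established role in lung maturation and small cell carcinoma, was measured at 9283, 9098, 7914, 9229 and 10421 normalized counts across the normal lungs, by replicate number from 1. The tumors, by replicate number from 1 to 7, held 17462, 34238, 34299.5, 33285, 27956, 31242 and 16102. Tumors 2, 3, 4, 5 and 6 formed the upper set, and tumors 1 and 7 lay below them but above every normal lung. Group means were 9189 ± 889 for the 5 normal lungs and 27798 ± 7846 for the 7 tumors (± SD). The log2 fold change was 1.54 (SE 0.21, 95% interval 1.09 to 1.99, limma adjusted p = 2.9e-05), which is 2.91-fold higher in tumor. Without tumor 7 the log2 fold change was 1.66, and without tumor 1 it was 1.64.

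Nfix (ENSMUSG00000001911), which in the nervous system acts in neural progenitor differentiation, showed the largest increase of the family. Its normalized counts by replicate number were 5569, 3066, 3482, 2663 and 8259 for the normal lungs. The tumors held 28799, 19468, 34907, 26909.7, 25326, 28648 and 13101. Tumor 7 was the lowest tumor and normal lung 5 the highest normal lung, and the groups did not overlap. The log2 fold change was 2.53 (SE 0.30, 95% interval 1.9 to 3.17, limma adjusted p = 7.44e-06), or 5.78-fold higher in tumor, and 2.68 without tumor 7. With all samples it was larger than the fold change of 90.6% of the genes tested, against 82.7% for Nfib and 69.7% for Nfic. The annotated span of Nfix overlaps those of Lyl1 and G430095P16Rik on the opposite strand, which were not analysed here, and use of the strand in counting is not stated, so its count is uncertain to that extent. The same limit holds for Nfib, which overlaps Gm11266, Gm11268 and Gm11269 on the opposite strand, and for Nfic, which overlaps Gm16104.

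Nfic (ENSMUSG00000055053) rose less. By replicate number the normal lungs held 5673, 3842, 4120.1, 3171 and 7545 normalized counts. The tumors held 7789, 8581, 12229, 9253, 7882, 7073 and 5268. The groups overlapped, since normal lung 5 lay above tumors 6 and 7 and normal lung 1 above tumor 7, and tumor 3 was the highest sample. The log2 fold change was 0.80 (SE 0.23, 95% interval 0.30 to 1.3, limma adjusted p = 0.00869), or 1.74-fold higher in tumor, and it was 0.97 without normal lung 5 and 0.90 without tumor 7.

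Nfia (ENSMUSG00000028565), a factor that starts gliogenesis in the spinal cord, was the member that fell. Its normal lung values were 3598, 3309, 3073.5, 3140.1 and 4564 normalized counts by replicate number. The tumor values were 649, 1418, 1025, 1593, 865, 1309 and 2466. Every tumor lay below every normal lung, with tumor 1 lowest and tumor 7 nearest to normal lung. The log2 fold change was -1.51 (SE 0.27, 95% interval -2.1 to -0.93, limma adjusted p = 3.12e-04), or 2.85-fold lower in tumor, and -1.68 without tumor 7. Nfia overlaps E130114P18Rik on the opposite strand, whose own values were 38.8 to 50.6 in normal lung and 6.33 to 66.6 in tumors, small beside those of Nfia.

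The summed mesenchyme markers, though not each marker, were lowest and highest in the tumors at both ends of the Nfia range. Over the 9 markers measured (such as Col1a1 and Pdgfrb), tumor 1 had a sum of 4986, the lowest value, and tumor 7 had 40234, the highest of all 12 samples. The mean log2 value of these markers was instead lowest in tumor 3, at 8.19 against 8.63 in tumor 1 and 11.67 in tumor 7. Pdgfrb was lowest in tumor 3 (329 against 416 in tumor 1), and Pdgfra in tumor 7 (781) lay below tumors 3 to 6. The leukocyte markers summed to 767 in tumor 1 and 11087 in tumor 7, against 7444 to 12862.5 in normal lung, and between 0 and 4 of the 11 leukocyte markers measured were at 0 in a tumor. By limma 0 of 9 mesenchyme markers were higher and 3 were lower in tumor, and 10 of 11 leukocyte markers were lower. The shares over all genes were 31.4% higher and 30.1% lower. The part of these cells in the Nfia values was not tested. In normal lung, sample 5 had the highest value of all 4 NFI genes and also the highest mesenchyme sum of its group, 34974 against 15177 to 22312 in the others, and this too was not tested.

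**Figure D2:**
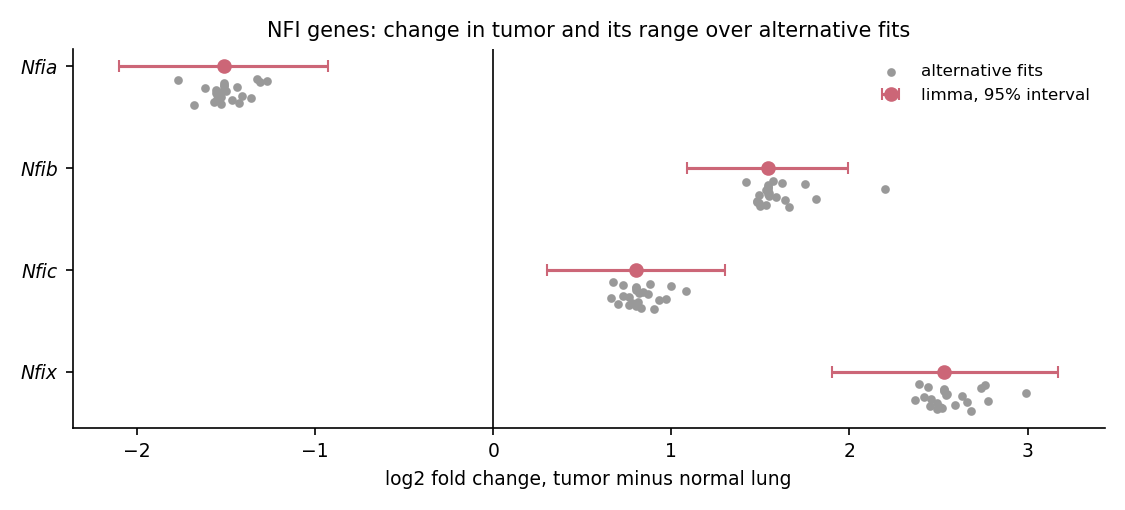
Log2 fold change of each NFI gene, tumor minus normal lung, as the limma estimate with its 95% interval (red) and the estimates of 23 alternative fits (grey). No alternative reaches 0, and Nfib ranges from 1.42 to 2.2, its highest value coming from quantile normalization.

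Levels of the 4 genes were compared with each other per kb of merged annotated exons (10.89 kb for Nfia, 14.96 kb for Nfib, 6.63 kb for Nfic and 7.35 kb for Nfix). In normal lung, Nfic (735 ± 265), Nfix (627 ± 317) and Nfib (614 ± 59.5) had levels per kb with overlapping spreads between lungs (SD, n = 5). Within each of the 5 lungs Nfic lay above Nfix by this length, and Nfia (325 ± 55.9) was the lowest. In tumors, the order per kb was Nfix (3443 ± 964), Nfib (1859 ± 525), Nfic (1251 ± 323) and Nfia (122 ± 54.9) (SD, n = 7). Nfix was the first of the 4 in 7 of 7 tumors and Nfia the last in 7 of 7. Nfib lay above Nfic per kb in every tumor but tumor 1, where they had 1168 (1167.5 before rounding) and 1175. With the longest annotated transcript as the length, Nfix was first in 6 of 7 tumors and Nfib in tumor 2, and in normal lung Nfib was first in 4 of 5 samples where merged exons gave 2 of 5, so the order of the upper 3 in normal lung depends on the length used.

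The summed level of the family per kb was 1746 to 3377 across normal lungs and 3879.8 to 8980.4 across tumors, with no overlap, normal lung 5 and tumor 7 being the nearest samples. Within this sum, the share of Nfix was 26.1% ± 5.28 in normal lung and 51.2% ± 6.497 in tumors. The share of Nfia was 14.5% ± 1.81 and 2.11% ± 1.70, and that of Nfic 31.5% ± 2.63 and 18.8% ± 2.01. Nfib made up 28.0% ± 5.87 of the sum in normal lung and 27.9% ± 5.26 in tumors (SD, n = 5 and n = 7 throughout). In composition the tumors thus held more Nfix and less Nfia and Nfic, with a share of Nfib within the same range. Ranked per kb among 18240 protein-coding genes, Nfix stood between positions 34 and 150 in tumors and between 482 and 2486 in normal lung. Nfib stood between 90 and 335 in tumors and 942 and 1427 in normal lung, and Nfia between 3721 and 9159 in tumors and 1888 and 3159 in normal lung.

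**Figure D3:**
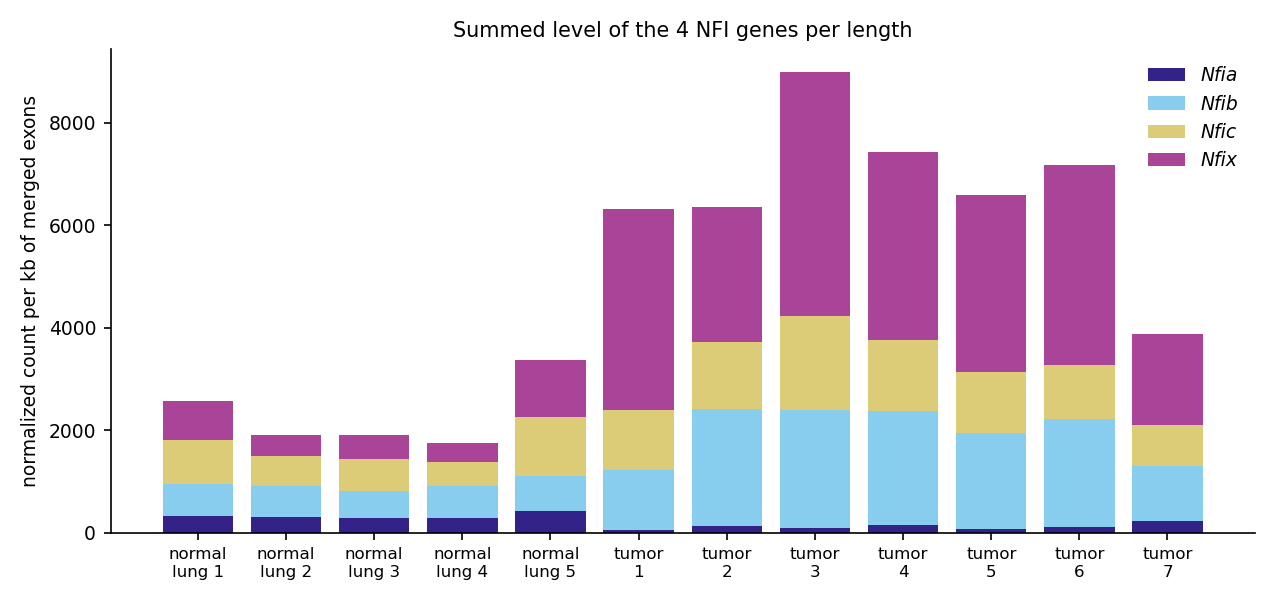
Summed normalized count per kb of merged exons for the 4 NFI genes in each sample, as stacked bars from 0. The bars of the tumors reach 3879.8 to 8980.4 and those of normal lung 1746 to 3377, and the Nfix segment is the largest in each tumor.

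Within-sample ratios show how far the members moved apart. The log2 ratio of Nfia to Nfix was -0.26 ± 0.47 in normal lung and -4.31 ± 1.02 in tumors, and that of Nfia to Nfib was -1.39 ± 0.13 and -4.44 ± 0.80 (SD, n = 5 and n = 7). The ratio of Nfic to Nfix went from 0.14 ± 0.19 to -1.59 ± 0.30. In 4 of the 6 pairs of members the ratios of the tumors did not overlap those of normal lung. In the other 2 pairs they did, with Nfib to Nfic at 0.98 ± 0.42 in normal lung and 1.73 ± 0.33 in tumors, and Nfib to Nfix at 1.12 ± 0.60 and 0.13 ± 0.46. For Nfia to Nfib and Nfia to Nfix, the separation of the ratios follows from the opposite separation of the single genes. No share over all gene pairs was computed, and no test was made on these ratios.

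Tumors 1 and 7, whose titles hold the Spanish word for trachea, had the lowest Nfib values, and the 4 tumors whose titles hold the word for lung had 27956 to 34299.5. The log2 difference of trachea-titled minus lung-titled tumors was -0.91 for Nfib (SE 0.22, 95% interval -1.44 to -0.39), which did not pass after adjustment in limma (adjusted p = 0.394, unadjusted p = 0.00423). Of 23282 genes tested in this comparison of 2 against 4 tumors, limma passed 0 (0.0%), while 2086 had an unadjusted p under 0.05. The differences were -0.56 for Nfix (95% interval -1.39 to 0.26), -0.48 for Nfic (-1.16 to 0.21) and 0.12 for Nfia (-1.11 to 1.34), and none of the 4 passed. For Nfia the pair was split, with tumor 1 the lowest and tumor 7 the highest of the tumors, and without tumor 7 the difference was -0.84. Without tumor 7 the difference was 0.00 for Nfix, -0.86 for Nfib and -0.19 for Nfic. Tumors that share a title number were not alike in every member. Tumors 3 and 4 had 34299.5 and 33285 for Nfib but 1025 and 1593 for Nfia, and tumors 5, 6 and 7 ran from 16102 to 31242 for Nfib.

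Because Nfib lies in a region that is amplified in mouse small cell lung tumors, the 5 nearest protein-coding genes of the table on each side were examined. Of the 10, 9 were tested, 4 were called higher and 3 lower in tumor, with a median log2 fold change of -0.21 against 0.04 over all genes tested. The shares over all genes tested were 31.4% higher and 30.1% lower, so these counts do not set the neighbours apart. Tyrp1, a pigment cell enzyme, was listed at 0 in every normal lung. The immediate neighbours Mpdz, a scaffold protein of cell junctions, and Zdhhc21, a palmitoyltransferase, were both higher. Mpdz had 375 to 531 normalized counts in normal lung, and 947, 1613, 1533, 1444, 1183, 1018 and 729 in tumors 1 to 7, with a log2 fold change of 1.36 (SE 0.20, limma adjusted p = 7.02e-05). Tumors 2, 3 and 4, which were highest in Nfib, were also highest in Mpdz. Zdhhc21 had 638 to 875 in normal lung and 1198 to 1906 in tumors, an increase of 1.14 in log2 (limma adjusted p = 1.1e-05, SE 0.14), with tumor 7 again the lowest tumor.

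Further out, Snapc3, a subunit of the complex that drives small nuclear RNA genes, had 317 to 427 in normal lung and 731 to 1035 in tumors (log2 fold change 1.22, SE 0.14, limma adjusted p = 5.89e-06). Cer1, a secreted inhibitor of Nodal and BMP signals, was at 0 in 4 of 5 normal lungs and at 1.41 in the other, and had 105, 356, 27.8, 20.7, 73.6, 56.6 and 22.4 in tumors 1 to 7. Lurap1l, Dmac1 and Frem1 fell, Lurap1l by 2.27 on the log2 scale (limma adjusted p = 1.52e-06, SE 0.22), Dmac1 by 0.93 and Frem1 by 0.90. Ttc39b changed by -0.21 (SE 0.17, adjusted p = 0.298) and was not called. Ptprd, a receptor phosphatase of synapse formation, was split among the tumors, with 44.3 in tumor 1 and 343 in tumor 2 against 2045 to 6413 in the others, so that its change of -0.40 in log2 (limma adjusted p = 0.752, SE 1.02) turned to 0.44 without tumor 1. Genes on either side of Nfib thus went in different directions. RNA counts do not measure copy number.

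**Figure D4:**
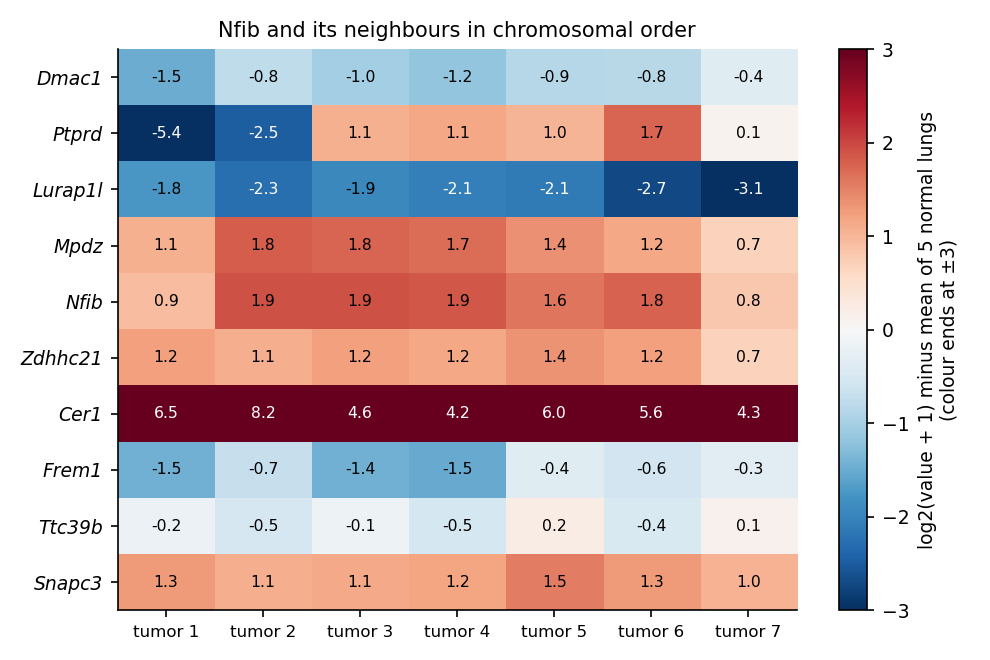
Log2(value + 1) of Nfib and its 9 tested neighbours in each tumor, in chromosomal order, minus the mean of the 5 normal lungs, with the colour scale ending at 3 in either direction. Mpdz, Nfib, Zdhhc21, Cer1 and Snapc3 are above 0 in all 7 tumors, while Lurap1l, Dmac1 and Frem1 are below 0 in all 7.

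Genes around the family were read from 4 lists. Lung epithelial maturation, which is delayed in mice without Nfib, was represented by 12 genes of surfactant, alveolar and airway secretory function. All 12 fell in tumor, and the tumors lay below normal lung in all 12, with a median log2 fold change of -8.18 against 0.04 over all genes tested. Of all genes, 30.1% were called lower, and in 18.4% every tumor lay below every normal lung. Sftpc, a surfactant protein of alveolar type 2 cells, went from 76365 ± 22531 to 200.2 ± 235 normalized counts (SD, n = 5 and n = 7). Ager and Aqp5, of alveolar type 1 cells, had log2 fold changes of -5.93 (SE 0.27) and -5.24 (SE 0.28). The smallest decrease was that of the lipid transporter Abca3, -2.11 (SE 0.20, limma adjusted p = 9.64e-07). These 12 genes are also markers of epithelial cell types. The lung epithelium sums were 299603 or more in normal lung and at most 3508 in tumors. Most of the markers in that sum are genes of this list, so it is not a separate measure of cell content. The part of cell content in these decreases was not tested. Higher Nfib and lower maturation genes stood side by side in every tumor. This follows from the separation of both from normal lung given above, and a link between them was not tested.

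Of 12 genes studied as NFI targets in the nervous system, 11 were in the table and tested, 6 were called higher, 3 lower and 2 in neither direction, with a median log2 fold change of 1.5. Among all genes tested 31.4% were higher and 30.1% lower, with a median of 0.04, so the lower count is near that share. Hes1, a Notch effector that Nfia represses in neural progenitors, fell from 2264 ± 542 to 193 ± 109.5 normalized counts (log2 fold change -3.69, SE 0.34, limma adjusted p = 9.04e-07). Ezh2, the PRC2 methyltransferase, which Nfib represses in developing cortex, was higher in tumor, with 131 to 234 in normal lung and 1538, 823, 1852, 1607, 2657, 2124 and 1415 in tumors 1 to 7 (3.26, SE 0.26, adjusted p = 1.85e-07). Both genes thus separated the groups, in opposite directions. The adhesion molecule Cntn2 had at most 6.46 in normal lung and 65.5 to 427 in tumors, and the Wnt inhibitor Apcdd1 changed by 1.5 (SE 0.33, adjusted p = 0.00136). Slc1a3, a glutamate transporter, fell by 3.87 on the log2 scale (limma adjusted p = 0.00348, SE 0.97), with 1458 in tumor 7 and 4.96 to 219 in the other tumors, and by 4.55 without tumor 7 and 3.22 without tumor 3. It was not called in edgeR on 11 samples (-1.87, adjusted p = 0.0735). Gfap, the astrocyte filament gene, was not called in limma (0.81, adjusted p = 0.428) but was in edgeR (2.41, adjusted p = 0.041), with 714 and 685 in tumors 6 and 7 and 16.5 to 89.8 in the others. The chromatin gene Bbx changed by 0.39 and was not called (adjusted p = 0.0997), although it was without tumor 1 (0.48) or tumor 4 (0.48) and under equal totals (0.59).

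Among 5 genes whose proteins bind or act with NFI proteins, 3 were higher, 1 lower and 1 not called, where 31.4% of all genes were higher and 30.1% lower. The pioneer factors Foxa1 and Foxa2 changed by 1.63 (SE 0.36, limma adjusted p = 0.00147) and 1.01 (SE 0.28, adjusted p = 0.00726), while tumor 7, at 1592 and 1617, was inside the range of the normal lungs for both. Sox9, a partner of Nfia in gliogenesis, had 5.64 to 37.9 in normal lung and 12.7, 42.9, 551, 358, 111, 617 and 222 in tumors 1 to 7, so that tumor 1 was within the normal lung range (log2 fold change 3.27, SE 0.89, adjusted p = 0.00595). With a covariate for Y-linked genes Sox9 was not called (1.7, adjusted p = 0.176). Sex is not labelled, and the spread of the Y-linked values over the groups is not given here. Ski, a corepressor that binds NFI proteins, fell by 1.18 (SE 0.15, adjusted p = 1.22e-05). Nkx2-1, the lung lineage factor that acts with NFI at surfactant promoters, changed by 0.45 and was not called (adjusted p = 0.133). Without tumor 7, which had 4566 against 10405 or more in the other tumors, it was called (0.66, adjusted p = 3.33e-04).

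The last list held 3 genes studied together with Nfib in small cell lung carcinoma, of which 2 were higher (Mycl, and Ezh2 as given above) and 1 lower (Cdh1), with a median log2 fold change of 1.84. As above, 31.4% of all genes were higher and 30.1% lower. Mycl, a gene also amplified in mouse small cell lung carcinoma, rose by a log2 fold change of 1.84 (SE 0.34, limma adjusted p = 3.41e-04). It had 331 to 679.5 in normal lung and 2984, 764, 3562, 1619, 1615, 2543 and 1490.3 in tumors 1 to 7. Copy number was not measured in the tumors of this series. Tumor 2, among the highest in Nfib, was the lowest in Mycl. Cdh1, which encodes E-cadherin and whose loss was described beside high Nfib, fell by 5.03 on the log2 scale (limma adjusted p = 1.88e-04, SE 0.85). Cdh1 had 6378 to 8042 in normal lung, 4858 in tumor 1 and 51.6 to 244 in tumors 2 to 7, and its log2 fold change without tumor 1 was -5.77. Tumor 1 thus combined the highest Cdh1 of the tumors with the lowest Nfib but for tumor 7, while tumor 7 had low values of both.

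**Figure D5:**
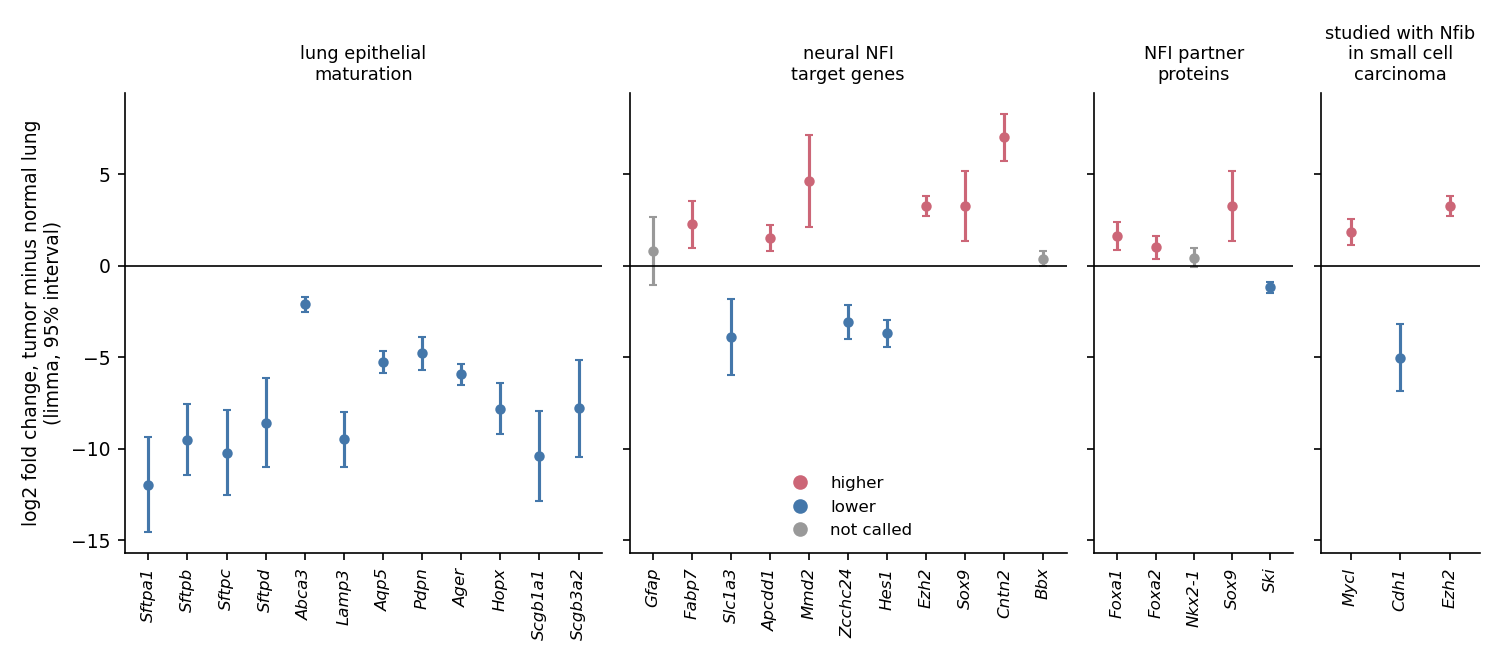
Log2 fold change, tumor minus normal lung, with 95% limma intervals for the genes of the 4 lists, coloured by call. All 12 maturation genes lie below 0, while the other lists hold genes in both directions.

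The genes most like each member across the tumors were ranked by Pearson's r of log2 values over the 7 tumors among 13434 genes with a mean log2 value of at least 6. This is a description over 7 points that share title numbers and the low neuroendocrine marker sum of tumor 7 (35543, lowest among the tumors). For Nfib the 4 most alike were Tut4, an RNA uridylyltransferase (r = 0.981), Pafah1b3 (0.977), the neuronal adhesion gene Iglon5 (0.971) and Bbs5, a subunit of the cilium complex BBSome (0.971), and all 4 were also higher in tumor. For Nfix they were Ppp2r2c (0.973), the corepressor Rcor2 (0.964), Oaz2 (0.963) and the chromatin remodeller Chd4 (0.962). Oaz2, which inhibits polyamine synthesis, was lower in tumor, and its r with Nfix over all 12 samples was -0.767. For Nfic they were the purine synthesis enzyme Paics (0.996), Gm5037 (0.996), Cep19 (0.989) and the replication repair gene Mms22l (0.989). Paics, Gm5037 and Mms22l were higher in tumor. Cep19 was not called (0.34, limma adjusted p = 0.164), and its r with Nfic over all 12 samples was 0.348. For Nfia they were Ripk3, a kinase of necroptosis (0.982), Ndrg2 (0.976), Sorbs3 (0.976) and the TGF-beta effector Smad3 (0.975), all lower in tumor. Tumor 7, the highest tumor in Nfia, was also the highest tumor in these 4 genes. It had 142 for Ripk3 against at most 52.1 in the other tumors, and 2076 for Ndrg2 against at most 538. No r without tumor 7 was computed. Between members, r over the 7 tumors was 0.714 for Nfib and Nfic, 0.515 for Nfib and Nfix, 0.772 for Nfic and Nfix, -0.724 for Nfia and Nfix, -0.455 for Nfia and Nfic, and -0.047 for Nfia and Nfib.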

How the data were processed

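Poly-A RNA of 5 normal lungs and 7 tumors was sequenced as paired ends on an Illumina NovaSeq, per the labels' protocols. The values the authors deposited are a normalized read count signal, one column for each of 12 samples. The submitters' processing notes name featureCounts, DESeq2 and GRCm39, with no versions or roles, and the aligner and use of strand are not given in the sources used here. In each column 100% of the values were whole multiples (within 0.001 reads) of the worth of 1 read, which gave the depth. A total of 3 reads was worth up to 4.85 normalized counts in a normal lung library and up to 3.57 in a tumor library. Reads are not independent molecules, so this covers counting error only. Of 25 pairs of libraries from one group, every pair differed by more than counting error, the closest with a chi-square of 18.4 for each degree of freedom. Symbols, exon lengths and neighbours came from GENCODE M21, which named 29982 of 30399 identifiers. Because its build differs from that of the table, no coordinates of counts are given.

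The test covered genes whose mean reached 1 and used log2(value + 1) in limma 3.58.1 (R 4.3.3, mean-variance trend, Benjamini-Hochberg adjustment), the normalized-value form of the planned test, and a gene was called at an adjusted p under 0.05. The added 1 makes the fold changes of low genes too small. Alternatives were equal totals, quantile normalization, a pseudocount of 0.1, other filters, averaging or correlating tumors of the same title number, a Y-linked covariate, leaving out samples, and edgeR 4.0.16 and DESeq2 1.42.0 on whole reads of 11 samples, without tumor 3, whose worth of 1 read is too near 1 for an automatic check of recovery. The leave-one-out fits of the trachea comparison were added after seeing the data. On simulated counts with the read totals of these libraries and 200 genes changed, limma (23379 genes) recovered 78 and made 2 false calls of 80, edgeR (18490 genes) recovered 73 with 3 false of 76, and DESeq2 (23975 genes) recovered 123 with 50 false of 173. Those 200 genes were split evenly between up and down, while 61.5% of genes were called in the real comparison. The simulated rates therefore do not describe the real comparison. The members and lists were chosen with earlier results of these data known. By rule the genes named are the members, those of the 4 lists, the 5 neighbours of Nfib on each side, and the 4 genes with the highest Pearson r to each member. Outside it, examples of cell type markers, genes that overlap a member and some neighbours of the other members are named. A further gene of the planned lists is not reported here and was left out of their counts. Listed markers not in the table (Tcf21, Ms4a1, Itgam and Actc1) were not analysed here, and of Gabra6, also not in it, only the promoter window was read. Figures were made with Python 3.11.15 and matplotlib 3.10.9.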

Additional observations from a re-analysis of the deposited data

How the results depend on the processing

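All 4 NFI genes kept their direction and their call in 23 of 23 alternatives, with log2 fold changes from -1.77 to -1.27 for Nfia, 1.42 to 2.2 for Nfib, 0.66 to 1.08 for Nfic and 2.37 to 2.99 for Nfix. The largest adjusted p was 0.0348, for Nfic with the Y-linked covariate. Under equal totals the median over all genes moved by 0.19, and the 4 genes gave -1.31, 1.75, 1.0 and 2.74. In edgeR they gave -1.27, 1.62, 0.73 and 2.44. Leaving out each sample in turn gave -1.68 to -1.36 for Nfia, 1.48 to 1.66 for Nfib, 0.66 to 0.97 for Nfic and 2.37 to 2.78 for Nfix. With the Y-linked covariate 3 genes of the neural target list were called higher in place of 6, since Fabp7, Mmd2 and Sox9 were not called. The count of lower genes in the small cell carcinoma list was 0 in DESeq2, which gave no adjusted p for Cdh1 (-2.89). In the trachea comparison, leaving out each tumor in turn gave differences from -0.84 to 1.08 for Nfia and from -1.13 to 0.00 for Nfix. By longest transcript the tumor shares were 33.4% for Nfib and 14.6% for Nfic. Quantile normalization moved Nfib from 1.54 to 2.2, and the cause was not tested. Fabp7 was not tested in edgeR or with a mean of at least 10. No paired analysis was possible because replicate numbers follow the order of listing and the groups share no title number.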

Other observations

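Genes next to Nfia, Nfic and Nfix, 5 protein-coding genes on each side, are given here as values, and those named were chosen after their values were seen. Over all genes tested, 31.4% were called higher and 30.1% lower in tumor, with a median log2 fold change of 0.04. Celf5, a neuronal RNA-binding protein gene next to Nfic, went from 12.7 to 23.2 normalized counts in normal lung to 1638 to 3663 in tumors (log2 fold change 7.12, SE 0.24, limma adjusted p = 1.4e-10). Cacna1a, a neuronal calcium channel gene near Nfix, went from 186 to 346 in normal lung to 3931 to 19424 in tumors (5.0, SE 0.40, adjusted p = 2.17e-07). On the same side of Nfic, S1pr4, a lymphocyte receptor gene, fell by 4.71 (SE 0.44). Around Nfia, which itself fell, 5 of 8 tested neighbours fell, 0 rose and 3 were not called, with a median log2 fold change of -3.69. Kank4 fell by 5.16 (SE 0.57) and the cytochrome P450 gene Cyp2j6 by 3.3 (SE 0.37). Patj, a cell polarity gene beside Nfia, had 2958 in tumor 1, the tumor with the highest Cdh1, against 326 to 509 in the other tumors and 911 to 1361 in normal lung, and it was not called (-0.86, adjusted p = 0.092). Around Nfic 2 of 10 neighbours rose and 2 fell, and around Nfix 4 of 10 rose and 3 fell, which does not set them apart from all genes.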
